A study of Caenorhabditis elegans with 6 samples.

Results

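AMP-activated protein kinase (AMPK) is a cellular energy sensor built from a catalytic alpha, a scaffolding beta and a nucleotide-binding gamma subunit. The genes followed here are the 9 subunit genes of Caenorhabditis elegans named in the reference gene table, aak-1 and aak-2 (alpha), aakb-1 and aakb-2 (beta) and aakg-1 to aakg-5 (gamma), together with par-4, which encodes the worm counterpart of LKB1, the kinase that activates AMPK. They were found by matching the sequence name or accession of each non-control probe to that table. All 10 genes had at least 1 probe, 15 probes in all, out of 43603 probes and 20439 named genes on the array. Of the 15 probes, 4 report alpha, 4 beta and 6 gamma subunits and 1 reports par-4.

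When ATP runs low, AMP and ADP bind the gamma subunit, LKB1 phosphorylates the alpha subunit, and the kinase shifts metabolism from building fat and protein to burning and recycling. In the worm this kinase is known for long life under energy stress, for survival and germline arrest in the dauer stage, and for fat storage. Folliculin, whose worm gene is flcn-1, binds AMPK in mammals through its partner FNIP. Kinase activity is set largely by phosphorylation and nucleotides, which transcript arrays do not measure.

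RNA came from whole, synchronised young adults picked before reproduction. The wild type, WTN2, was represented by 3 arrays and the flcn-1 mutant strain RB1035, crossed back to WTN2 8 times, by 3 arrays. Both strains were grown on agar with OP50 bacteria, and the replicates are described as biological triplicates. The labels do not say where the lesion in flcn-1 lies. The flcn-1 transcript stayed well above background on all 6 arrays (difference -0.11 by its brightest probe, limma adjusted p = 0.901).

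Each array detected 68.1% to 73.1% of its probes well above background. The arrays lay on 2 slides: WTN2 1 and RB1035 1 on slide 1, and the other 4 arrays on slide 2. On RB1035 2 and RB1035 3 the signals of copies of one probe varied more, with a median coefficient of variation of 22.4% and 20.9% against 8.19% to 10.9% elsewhere. Adult markers fitted the labelled stage: 4 of 5 adult epidermis genes and all 5 yolk genes with a matched probe (vit-3 had none) were well above background on all arrays, against 1 of 6 genes of the early embryo, of which tbx-38 and pes-10 were detected on no array. All levels below are log2 signals minus the array's 75th percentile, so 0 marks that percentile. Probes differ in how well they hybridise, so the level of one subunit is not set against that of another.

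All 9 subunit genes had a probe well above background, and par-4 did not. All 6 arrays detected 14 of the 15 probes well above background, against 63.7% of the probes in all. The single par-4 probe never rose well above background, and neither did 21.6% of all probes. Its signals were 16.7, 5.64 and 8.80 in WTN2 and 16.7, 7.24 and 4.94 in RB1035, where the array's median probe had 153 to 226. No fold is given for par-4, since its probe was not called well above background on any array of either strain, and it was not among the genes tested.

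None of the 9 tested subunit genes passed the threshold between the strains (limma, adjusted p of 0.05 over 19817 features), where 20 features, 0.101% of all, did (0.0202% higher in RB1035). At an unadjusted p under 0.05 there was 1 of 9, aakg-3, against 7.24% of all features. By mean, all 9 were higher in RB1035, by 0.13 to 1.59 with a median of 0.44, while 50.3% of all features were higher and their median difference was 0.00. With normexp background correction the 9 means were still above 0, but the median of all features was then 0.18, and aakb-1 (0.16) and aakb-2 (0.09) lay below it. Without WTN2 1 the median of the subunits was 0.26. By its tested probe, no subunit gene had all 3 arrays of one strain apart from the 3 of the other, which 12.0% of all features had.

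**Figure D1:**
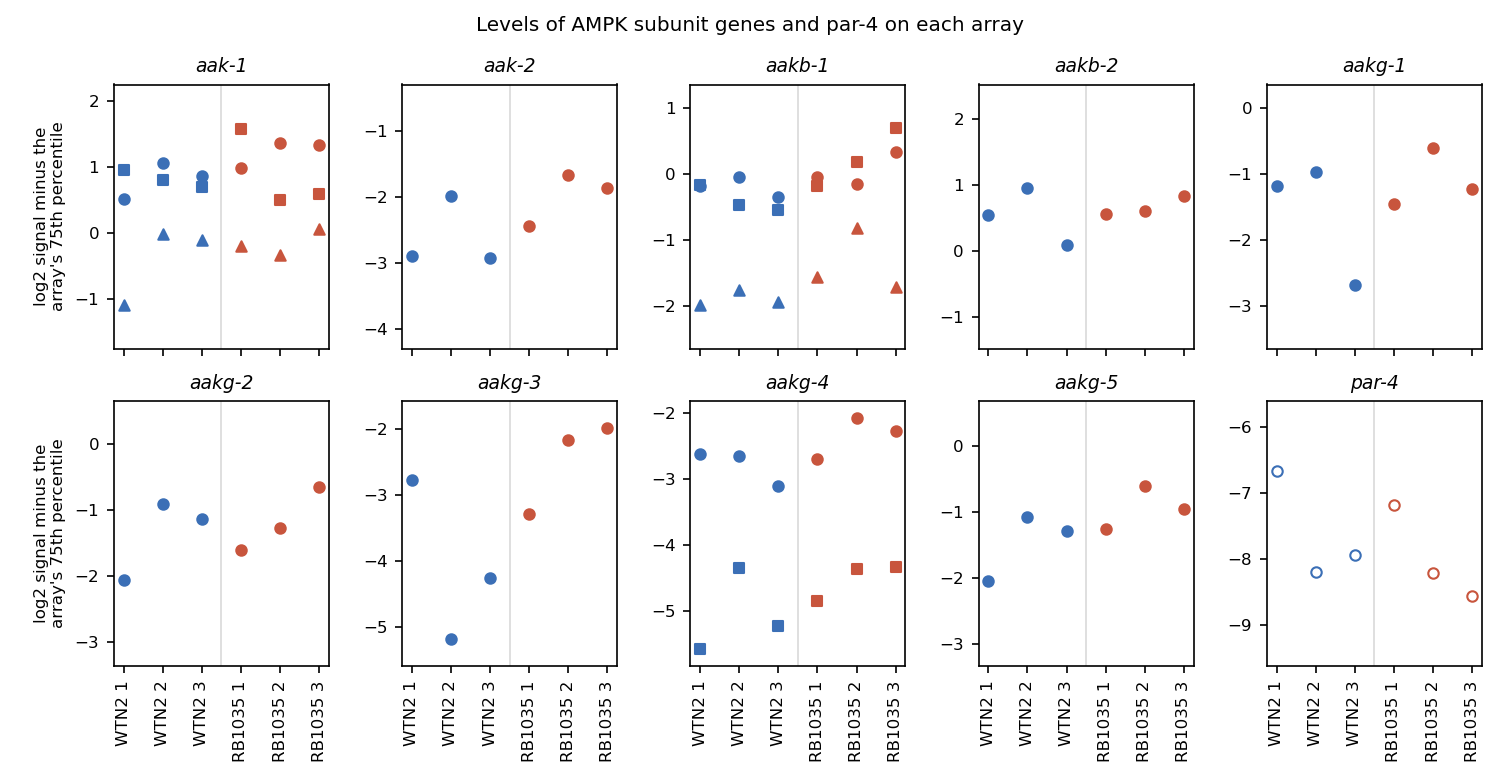
Levels of the 10 genes on each array, as log2 signal minus the array's 75th percentile, in panels that each span 4 log2 units. Blue points are WTN2 and red points RB1035. Circles are the probe used in the test or, for par-4, its single probe, which was not tested. Squares and triangles are other probes of the gene, and open points are not well above background on any array. In each panel the circles of the strains overlap, and aakg-3 has the widest spread.

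The alpha subunits carry the kinase domain. The gene aak-2, needed for long life under energy stress, had levels of -2.90, -1.98 and -2.92 on WTN2 1, 2 and 3 and of -2.45, -1.68 and -1.87 on RB1035 1, 2 and 3. RB1035 2 and 3 lay above every wild type array, and RB1035 1 lay below WTN2 2. The difference was 0.60 ± 0.36 (SE, n = 3 each), a 1.52-fold higher mean with a 95% confidence interval from 0.857-fold to 2.69-fold (limma adjusted p = 0.653). By the values of the authors' deposited table the strains did not overlap for aak-2: its log2 levels there were 8.34, 8.11 and 7.96 in WTN2 and 8.37, 9.31 and 9.30 in RB1035. WTN2 1 and RB1035 1 are almost level in that table, and in it 10.2% of all features were without overlap. The processed signal placed WTN2 2 highest of the wild type arrays for this probe, and the authors' table did not.

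The other catalytic gene, aak-1, was read by 3 probes. By the brightest its levels were 0.51, 1.06 and 0.86 in WTN2 and 0.98, 1.36 and 1.32 in RB1035. By the processed signal RB1035 2 and 3 were again the highest arrays, and RB1035 1 fell within the wild type range. The difference was 0.41 ± 0.28 (SE; interval -0.23 to 1.05; limma adjusted p = 0.668). The second probe placed the excess elsewhere, with 0.95, 0.80 and 0.69 in WTN2 against 1.58, 0.49 and 0.59 in RB1035, a difference of 0.07. The third gave -1.09, -0.01 and -0.11 against -0.21, -0.34 and 0.05, a difference of 0.24. All 3 probes carry the same transcript name in the files, and by the processed signal the array that stood highest differed between them. Which transcripts each probe detects was not tested. After normexp the 3 probes of aak-1 differed by 0.27 to 0.31. For the brightest probe the authors' deposited table read 11.56, 11.71 and 11.90 in WTN2 and 12.04, 12.28 and 11.84 in RB1035. There, and after normexp, RB1035 1 and 2 were the highest arrays and RB1035 3 fell within the wild type range. For the second probe RB1035 3 was the highest array in both, so the order of the arrays also depended on the processing.

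Beta subunits hold alpha and gamma together, and in mammals they also bind glycogen. The brightest of the 3 probes of aakb-1 gave -0.18, -0.04 and -0.34 in WTN2 and -0.04, -0.15 and 0.33 in RB1035, a difference of 0.23 ± 0.27 (SE; limma adjusted p = 0.763). Only RB1035 3 stood clear of the wild type arrays, as RB1035 1 and WTN2 2 were level. The other probes of aakb-1 gave larger differences. One read -0.17, -0.47 and -0.54 in WTN2 and -0.18, 0.19 and 0.69 in RB1035, a difference of 0.63. The dimmest read -1.98, -1.75 and -1.94 against -1.55, -0.82 and -1.71, a difference of 0.53, and was the only member probe whose strains did not overlap. In the authors' deposited table the strains overlapped for that probe, and did not for the second probe of aakb-1.

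The second beta gene, aakb-2, had the smallest difference of the 9, at 0.13 ± 0.30 (SE; interval -0.56 to 0.83; limma adjusted p = 0.883). Its levels were 0.55, 0.95 and 0.10 in WTN2 and 0.56, 0.61 and 0.83 in RB1035. The mutant arrays all lay inside the wild type range. Without WTN2 3, the lowest array, the sign of the aakb-2 difference turned (-0.08).

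In mammals gamma subunits bind AMP, ADP and ATP and so sense energy state. The group of 5 worm gamma genes held both the largest difference and the widest spread. Transcripts of aakg-3 had levels of -2.77, -5.18 and -4.25 in WTN2 and of -3.29, -2.16 and -1.98 in RB1035. In signal these were 249, 45.7 and 113 against 248, 478 and 475, while the dimmest probe still well above background had 7.76 to 26.0 on these arrays. RB1035 2 and 3 were above every wild type array, but RB1035 1 was below WTN2 1. The mean was 1.59 ± 0.61 (SE) higher in RB1035, or 3.01-fold with a 95% confidence interval from 1.14-fold to 7.94-fold (limma unadjusted p = 0.0306, adjusted p = 0.65). Of all features 99.3% had a lower difference, and 94.6% had a smaller pooled SD within the strains, which was 0.99 for aakg-3. The 2 slides disagreed for aakg-3, with -0.52 on the first and 2.64 on the second. Without WTN2 2, its lowest array, the difference was 1.03.

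For aakg-1 a single wild type array stood apart. Levels were -1.18, -0.98 and -2.68 in WTN2 and -1.46, -0.61 and -1.22 in RB1035. The difference of 0.51 ± 0.48 (SE; limma adjusted p = 0.72) came to -0.02 without WTN2 3. The slides again went opposite ways for aakg-1, with -0.28 and 0.91.

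The gene aakg-2 lies close to aak-2 on chromosome X, with 8 protein-coding genes between them in the gene order of assembly WBcel235. Its levels were -2.06, -0.91 and -1.14 in WTN2 and -1.61, -1.28 and -0.66 in RB1035, which overlap widely. The difference was 0.18 ± 0.39 (SE; limma adjusted p = 0.874) and turned to -0.16 without WTN2 1 and to -0.08 without RB1035 3. Both aakg-2 and aak-2 were low on WTN2 1, with deviations of -0.78 and -0.60 from their own means. On WTN2 3 and RB1035 2 aakg-2 lay near its mean, where aak-2 deviated by -0.62 and 0.62.

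The 2 probes of aakg-4 carry the names of different transcripts. The brighter, named for transcript b, read -2.61, -2.65 and -3.10 in WTN2 and -2.70, -2.07 and -2.27 in RB1035. With an SD of 0.27 and 0.32 it was among the steadier gamma readings, and the difference was 0.44 ± 0.30 (SE; interval -0.24 to 1.12; limma adjusted p = 0.665). The probe named for transcript a read -5.58, -4.35 and -5.22 against -4.85, -4.35 and -4.33, a difference of 0.54. The 2 probes of aakg-4 gave similar mean differences, but on slide 1 they went opposite ways, with -0.09 for the b probe and 0.73 for the a probe.

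The last gamma gene, aakg-5, was higher on both slides, by 0.79 and 0.40. Levels were -2.04, -1.07 and -1.29 in WTN2 and -1.25, -0.61 and -0.96 in RB1035, so that RB1035 1 fell between the wild type arrays. The difference was 0.53 ± 0.34 (SE; limma adjusted p = 0.662) and came to 0.24 without WTN2 1. In the authors' deposited table the strains did not overlap for aakg-5, nor for 10.2% of all features. Its levels there were 9.25, 9.88 and 9.85 in WTN2 and 9.91, 10.3 and 9.96 in RB1035.

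**Figure D2:**
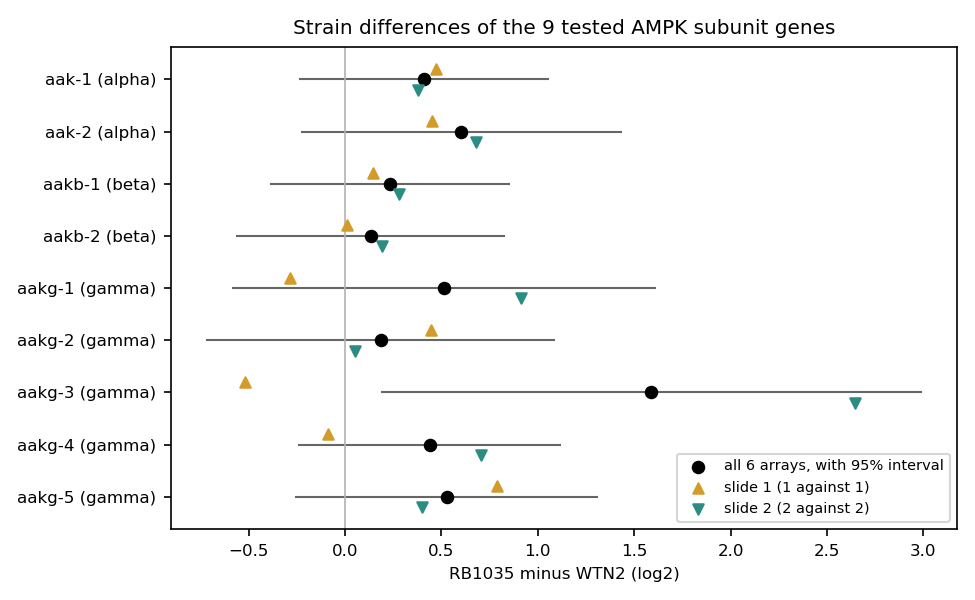
Difference between the strains (RB1035 minus WTN2, log2) of each of the 9 tested subunit genes. Black points with bars are the limma estimate and its 95% confidence interval over all 6 arrays, and triangles are the differences within slide 1 (1 array per strain) and slide 2 (2 per strain). The interval of aakg-3 alone lies above 0 before adjustment, and its slide values, -0.52 and 2.64, lie farthest apart.

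By subunit class, the mean of the alpha genes differed by 0.51, that of the beta genes by 0.18 and that of the gamma genes by 0.65. The gamma mean includes the 1.59 of aakg-3, and by median the gamma genes (0.51) were level with the alpha genes (0.51). These values use the brightest probe of each gene, and the gap between alpha and beta depended on that choice. With the mean of each gene's probes aak-1 differed by 0.24 and aakb-1 by 0.46, while aak-2 and aakb-2 stayed at 0.60 and 0.13. The alpha mean was 0.46 on slide 1 and 0.53 on slide 2, by the brightest probe of each gene. By the processed signal the other 2 probes of aak-1 were lower in the mutant on slide 2, with differences of -0.21 and -0.08. For the probe with -0.21 the authors' deposited table went the other way. It read 11.30 and 11.53 on WTN2 2 and 3 against 11.40 and 11.94 on RB1035 2 and 3. For the gamma genes the slides gave 0.07 and 0.94, and for the beta genes 0.08 and 0.24. Of the 9 genes, 6 were higher in the mutant on slide 1 and 9 on slide 2, beside 47.9% and 49.7% of all features. On slide 2 both mutant arrays were those with the large variation between copies of a probe, so strain and array quality cannot be told apart there.

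Averaged over the 9 subunit genes, the deviation from the 6-array mean was -0.25, -0.04 and -0.48 on WTN2 1, 2 and 3 and -0.09, 0.43 and 0.44 on RB1035 1, 2 and 3. By this mean RB1035 1 sat between the wild type arrays. WTN2 3 was the lowest array for 5 genes (aak-2, aakb-1, aakb-2, aakg-1 and aakg-4) and WTN2 1 for 3 (aak-1, aakg-2 and aakg-5). RB1035 2 was the highest for 5 genes, RB1035 3 for 3, and WTN2 2 for aakb-2. The gene aakg-4 was nearest to this mean profile, with a root mean square distance of 0.11 on the log2 scale, and aakg-3 farthest, at 0.96. The mean contains the subunits themselves, and still 91.9% of 15537 other named genes were nearer to it than aakg-3, 43.9% nearer than aakg-1 (0.46) and 38.9% nearer than aakg-2 (0.43).

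Markers of body wall muscle, pharynx, oocyte and intestine had higher mean deviations on RB1035 2 and 3 than on WTN2 1 and 3. The mean of the subunits did too, though aakg-1 and aakg-2 by themselves did not. Those arrays are the highest and the lowest of the subunit mean, and this contrast leaves out WTN2 2 and RB1035 1. The intestine markers were lowest on RB1035 1, at -0.17. The counts of higher markers below stand beside 50.3% of all features. All 8 muscle markers were higher in the mutant by mean, with a median of 1.46, and none passed the threshold. Their mean deviation was -0.77, 0.10 and -1.34 in WTN2 and -0.61, 1.38 and 1.24 in RB1035, and their summed level, in units of the array's 75th percentile, was 30.7 to 54.4 in WTN2 and 34.8 to 102 in RB1035. Pharynx markers, 6 of 6 higher, deviated by -0.94, 0.34 and -0.52 and by -0.20, 0.86 and 0.45, with a summed level of 9.77 to 18.9 and 14.96 to 23.0. No marker of the muscle and pharynx lists was undetected. The mean deviation of the oocyte markers was 0.00, -0.16 and -0.71 in WTN2 and -0.12, 0.39 and 0.60 in RB1035. Oocyte markers were higher in 8 of 8 (median 0.54; summed level 66.6 to 132 in WTN2 and 106 to 158 in RB1035), and sperm markers in 1 of 7 (median -0.64; 19.2 to 25.4 and 13.6 to 21.0). Neuron markers were higher in 6 of 7 (median 0.14), yolk markers in 3 of 5 (0.41), adult epidermis markers in 2 of 4 (0.07) and embryo markers in 1 of 2 (0.032). Intestine markers, 6 of 7 higher with a median of 0.07, deviated by at most 0.18 in either direction on any array. The part of these tissues in the subunit values was not tested, and in whole animals fewer cells of a type and less RNA per cell cannot be told apart.

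**Figure D3:**
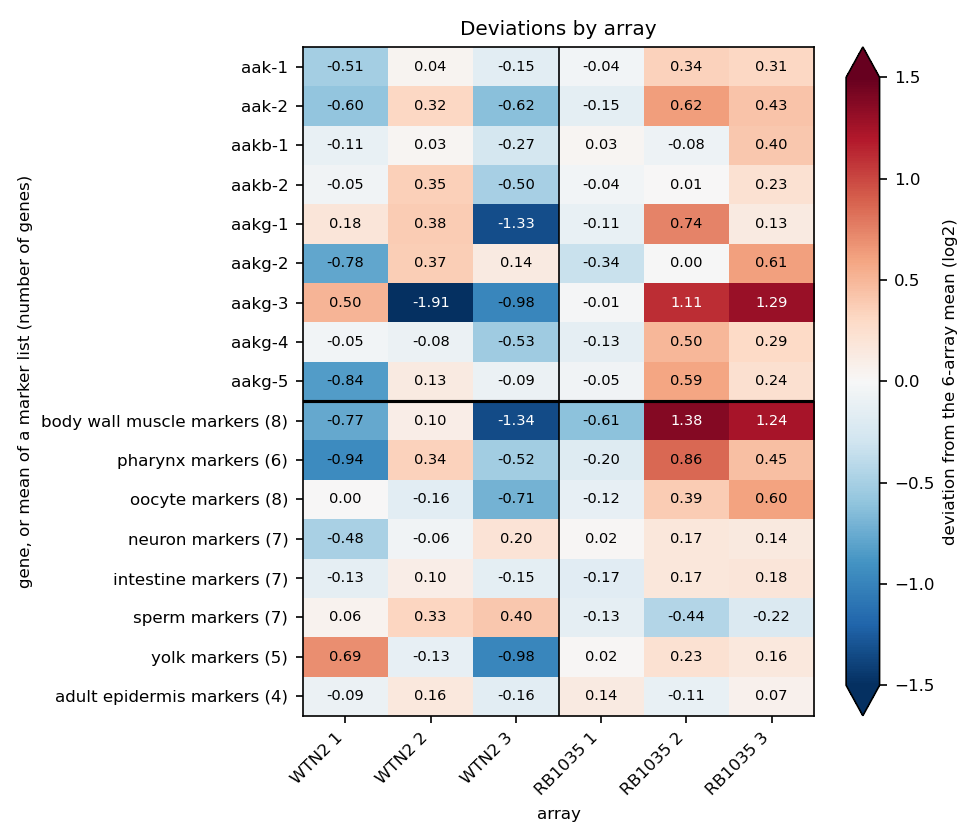
Deviation of each tested subunit gene from its own 6-array mean (log2), above the line, and the mean deviation of 8 lists of tissue and stage markers, below it, with the number of genes in parentheses. Colour runs from blue (below the mean) to red (above) and is capped at 1.5. RB1035 2 and 3 are mostly red and WTN2 1 and 3 mostly blue for the subunits, muscle, pharynx and, more faintly, intestine. RB1035 1 is blue for muscle, pharynx and intestine. For oocyte markers RB1035 2 and 3 are red and WTN2 3 is blue.

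For likeness to aak-2, deviations over the 6 arrays were compared with those of 15537 named genes outside the set. The nearest were pqn-94, pgp-13 and zip-3, at root mean square distances of 0.06, 0.07 and 0.07, where the median gene lay at 0.61. Among the other subunits aak-1 (0.26), aakg-5 (0.27) and aakg-4 (0.29) were nearest to aak-2, and aakg-3 (1.10) was farther than 93.2% of genes. To the mean profile of the subunits C32D5.10 (0.02), K04C2.3 (0.03) and wht-7 (0.04) were nearest. These genes share the arrays and their scaling with the subunits, and their strain differences were 0.48 to 0.61, none past the threshold (limma adjusted p of 0.65 to 0.665).

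In genome position, which the rule did not use, 5 of the 10 genes lie on X (aak-2, aakb-1, aakg-2, aakg-3 and aakg-4), 3 on III, 1 on II and par-4 on V. Named genes of X as a whole were higher in the mutant in 1392 of 2111 cases, with a median of 0.18, against 6353 of 13098 genes elsewhere, with a median of -0.02. The 5 subunit genes on X had a median of 0.44 and the 4 tested genes off X a median of 0.46.

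Upstream of AMPK, none of 5 genes passed the threshold, and 4 of 5 were higher by mean (median 0.24), where 50.3% of all features were. That median was 0.10 without RB1035 3, 0.13 without RB1035 2, 0.15 without WTN2 2 and -0.069 within slide 1. The gene strd-1 encodes the pseudokinase STRAD that holds LKB1 active. Its levels were 1.12, 1.21 and 1.21 in WTN2 and 1.39, 1.41 and 1.65 in RB1035. The strains did not overlap for strd-1 alone of the 5, where 12.0% of all features had no overlap. The strd-1 difference was 0.30 ± 0.25 (SE; limma adjusted p = 0.695), with 0.30 to 0.57 over its 3 probes. The MO25 adaptor genes went different ways, with 0.44 for mop-25.1, 0.24 for mop-25.3 and -0.82 for mop-25.2. The last rests on RB1035 2, whose level was -2.93 beside -0.83 and -0.93 on the other mutant arrays. For mop-25.1 the slides disagreed, with -0.82 on slide 1 and 1.08 on slide 2. The calcium-dependent kinase gene ckk-1 differed by 0.20.

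The kinases related to AMPK, which LKB1 activates in mammals, were higher by mean in 4 of 4, where 50.3% of all features were. Their median was 0.66, and none passed the threshold. The median was 0.38 without WTN2 3, 0.43 without RB1035 3, 0.53 with the mean of each gene's probes and 0.016 within slide 1. They are unc-82 (0.78), which organises muscle filaments, sad-1 (0.77) of synapses, par-1 (0.55) of cell polarity and kin-29 (0.52), the worm salt-inducible kinase. For par-1 the slides gave -0.77 and 1.20, and for kin-29 -0.13 and 0.85. Over the probes of a gene the differences were 0.19 to 0.55 for par-1, 0.27 to 0.52 for kin-29 and 0.58 to 0.77 for sad-1.

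Of 14 targets and effectors none passed the threshold, 13 were higher by mean, where 50.3% of all features were, and the median was 0.41. It was 0.21 without WTN2 3, 0.27 without RB1035 3, 0.63 without WTN2 2 and 0.67 without RB1035 1, and within slide 1 it was -0.042. The fatty acid synthase gene fasn-1 differed most, by 0.84 ± 0.40 (SE; limma adjusted p = 0.65). Its levels were 2.19, 2.28 and 0.93 in WTN2 and 2.36, 2.75 and 2.81 in RB1035, without overlap, though RB1035 1 stood close above WTN2 2. It was the only 1 of the 14 without overlap, beside 12.0% of all features. Other lipid genes were atgl-1 (0.60), a triglyceride lipase, nhr-49 (0.57), a receptor that drives fat burning, sbp-1 (0.51), the worm SREBP, and pod-2 (0.41), the acetyl-CoA carboxylase that AMPK inhibits in mammals. In the autophagy and TOR branch hlh-30 differed by 0.53, unc-51 by 0.50, let-363 by 0.40 and daf-15 by 0.34. The smallest differences were those of hmgr-1 (0.15), the FOXO gene daf-16 (0.13) and the CREB coactivator gene crtc-1 (-0.04), while crh-1, the CREB gene, differed by 0.41 and the glycogen synthase gene gsy-1 by 0.39. Over the probes of a gene the differences were 0.18 to 0.60 for atgl-1, 0.33 to 0.57 for nhr-49 and 0.84 to 1.06 for fasn-1. They were 0.50 to 0.88 for unc-51, 0.53 to 0.92 for hlh-30 and -0.05 to 1.73 for crh-1. Of the folliculin complex, fnip-2 differed by 0.46 (limma adjusted p = 0.701). The flcn-1 difference of -0.11 was -0.84 on slide 1 and 0.25 on slide 2, and -0.11 to 0.22 over its probes.

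**Figure D4:**
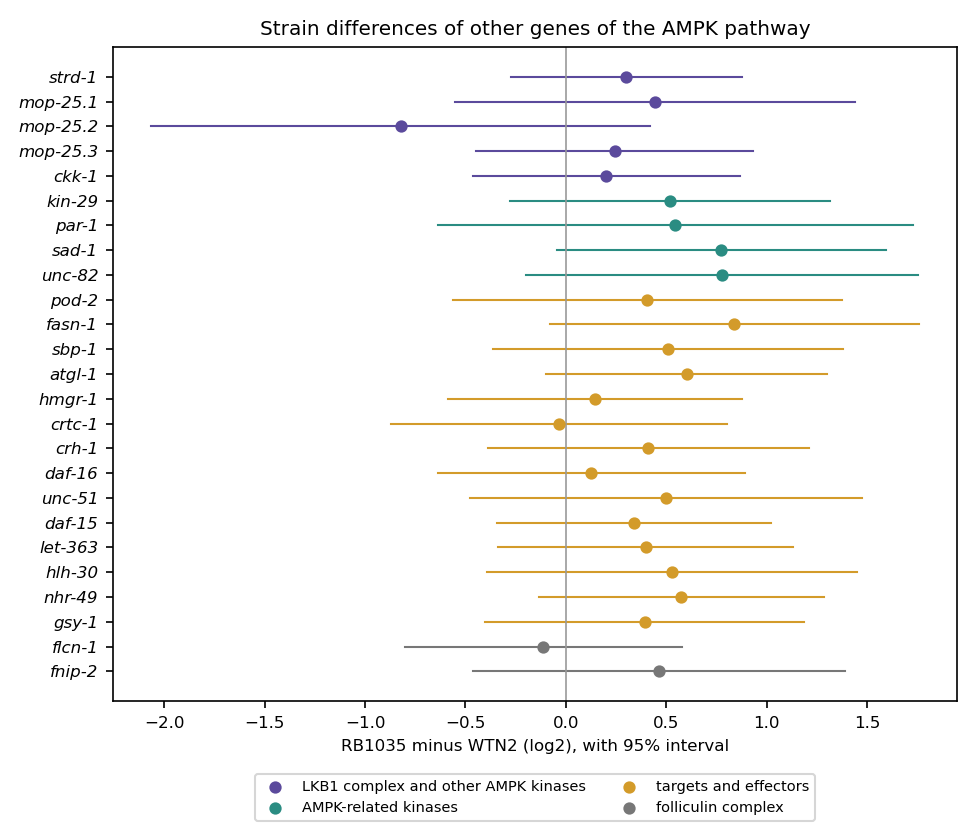
Difference between the strains (RB1035 minus WTN2, log2) with its 95% limma confidence interval for 25 genes around AMPK, coloured by list. All intervals include 0, and 22 of the 25 estimates lie above it, with mop-25.2, crtc-1 and flcn-1 below.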

How the data were processed

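Per the file headers, spot intensity values came from Agilent Feature Extraction 10.7.3.1 on 1-colour arrays designed against build ce4 (WS170). The authors' processed signal has a spatial background subtracted and, except on RB1035 2, is divided by a fitted surface. The deposited series table holds log2 values that the authors scaled to nearly equal medians of 7.61 to 7.62, by a method that the sources do not state. Its values are levels.

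Control spots were dropped, spots of a probe were averaged, and each array's 75th percentile was subtracted. Probes with an outlier flag (149) were left out, no spot was saturated, and probes were kept when 3 or more of the 6 arrays had them well above background. The brightest probe stood for its gene. Names came from a RefSeq gene table of WBcel235 for 35397 probes, 1077 of them under the file's own sequence name. Its coordinates are not given, as the builds differ.

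Limma 3.58.1 in R 4.3.3 was fitted to 19817 features (two-sided, Benjamini-Hochberg), and checked on simulated data. That check rarely recovered changes of 2-fold, so a gene that did not pass the threshold is not shown to be unchanged. Every member, the pathway lists and the 3 genes most like aak-2 and the mean profile could be named. Members and lists were chosen with earlier results of these data known. Alternatives were other background corrections, scalings, filters, probe rules, blocks and single arrays left out. The number of arrays limits precision.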

Additional observations from a re-analysis of the deposited data

How the results depend on the processing

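No subunit gene passed the threshold under the main setting or any of the 16 alternatives that give a test, and all gave the same direction as the main value except those named here. Within slide 1, where there is 1 array per strain and no test, the sign turned for aakg-1 (-0.28), aakg-3 (-0.52) and aakg-4 (-0.087). With single arrays left out it turned for aakb-2 (range -0.084 to 0.34), aakg-1 (-0.022 to 0.83) and aakg-2 (-0.16 to 0.41), while the median of the subunits ranged from 0.26 to 0.62, and within slide 1 it was 0.15. Adjusted p of aakg-3 was lowest within slide 2, at 0.194. Medians within slide 1 were -0.069 for the upstream list (0.10 to 0.35 with single arrays left out), 0.016 for the related kinases, -0.042 for targets and -0.61 for the folliculin pair. The cause was not tested. Of all features 11 passed with normexp and 1 when only probes detected on all 6 arrays were tested, against 20. With the replicate block 30 features and 0 subunit genes passed. Same-numbered arrays correlated in their deviations by 0.12, 0.12 and 0.02, so the numbers are not taken to pair the arrays.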
